A study of Mus musculus with 12 samples.

Results

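The genes described here are 9 genes of goblet cells and mucus: *Muc2*, *Tff3*, *Fcgbp*, *Clca1*, *Zg16*, *Agr2*, *Spink4*, *Spdef* and *Atoh1*. They were taken by name from the expression tables of all libraries, with rows of the same gene ID summed, and are 9 of 54532 gene IDs. The question was how these genes are expressed in the colon and urinary bladder, and whether their levels differ when YAP (*Yap1*) and TAZ (*Wwtr1*), transcriptional co-activators of the Hippo pathway, are deleted from smooth muscle. RNA from whole pieces of distal colon and bladder of male mice aged 5 to 7 weeks was sequenced in 12 libraries, 1 mouse per library. The groups were Ctrl colon (mice 788, 786 and 787), Y/T KO colon (759, 783 and 780), Ctrl bladder (784, 785 and 788) and Y/T KO bladder (782, 783 and 780), so n = 3 in every group, and 3 of the 9 mice gave both tissues.

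Both genotypes carried floxed *Yap1* and *Wwtr1* alleles on a mixed background, and both received tamoxifen, 1 mg per mouse per day on 5 consecutive days. Y/T KO mice carried in addition the tamoxifen-inducible Cre recombinase Myh11CreERT2, which is expressed from the promoter of smooth muscle myosin heavy chain, and Ctrl mice were Cre-negative. Tissues were taken on day 7 after the first injection. Recombination is thus directed to smooth muscle, and goblet cells, which are epithelial, are not cells in which this Cre is meant to act. In whole tissue, TPM of *Yap1* was 45.8 to 54.9 in Ctrl colon and 41.3 to 47.0 in Y/T KO colon, and 98.6 to 110 in Ctrl bladder and 69.4 to 72.1 in Y/T KO bladder. *Wwtr1* overlapped between genotypes in both tissues. Whole tissue also holds cells in which this Cre is not meant to act, so these values do not measure the deletion in smooth muscle. The bladder libraries of Ctrl 784, Y/T KO 783 and Y/T KO 780 stood apart, as they held prostate transcripts, and bladder results for *Agr2* and *Spdef* are given with and without them. TPM is the number of transcripts of a gene per 1000000 transcripts of the library, and is adjusted for transcript length.

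Goblet cells are secretory cells of the intestinal epithelium that make and release the mucus covering it. Their fate is set when Notch signaling is low and the transcription factor ATOH1 is active, and SPDEF acts later to drive their maturation. The mucus itself is a gel of the mucin MUC2, to which other secreted proteins, among them FCGBP, CLCA1, ZG16 and TFF3, are added, and AGR2 is an enzyme of the endoplasmic reticulum that is needed to fold the mucin. The bladder is lined by urothelium, which has no goblet cells in normal mice.

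*Agr2* and *Spdef* were the members whose levels moved together across bladder libraries, as described in the results on bladder, and their promoters are shown for that reason. Each sequence spans 250 bases before to 50 bases after the annotated start, 5′ to 3′ on the strand of the gene, from RefSeq (GRCm38.p6), and 5 of the 9 members were matched by symbol in that table. The promoter of *Agr2* is at chr12:35992675-35992974 (plus strand) and that of *Spdef* at chr17:27728902-27729201 (minus strand).
Agr2: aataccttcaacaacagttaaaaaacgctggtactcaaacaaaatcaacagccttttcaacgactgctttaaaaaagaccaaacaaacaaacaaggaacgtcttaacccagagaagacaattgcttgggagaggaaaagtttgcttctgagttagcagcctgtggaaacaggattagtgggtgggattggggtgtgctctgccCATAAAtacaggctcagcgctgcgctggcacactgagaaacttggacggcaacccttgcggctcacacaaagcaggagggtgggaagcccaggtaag
Spdef: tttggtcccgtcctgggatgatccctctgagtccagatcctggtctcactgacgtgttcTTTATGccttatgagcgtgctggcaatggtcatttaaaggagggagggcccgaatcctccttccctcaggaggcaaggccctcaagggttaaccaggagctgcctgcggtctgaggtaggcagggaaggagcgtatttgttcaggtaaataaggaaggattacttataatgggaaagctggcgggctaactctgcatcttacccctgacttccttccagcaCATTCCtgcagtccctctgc
Capitals mark matches, on either strand, to any of 5 short motifs that were searched, and no matches overlapped. The motifs were CAGCTG (an E-box), GGAATG (the core of TEAD sites, through which YAP and TAZ act), TATAAA (the TATA box), TGTTTAC (a FOXA core) and TTTATG (a CDX core). The *Agr2* promoter held 1 match, to TTTATG on the reverse strand. The *Spdef* promoter held 1 match to TTTATG and 1 to GGAATG on the reverse strand. Among 32851 promoters of the same length, TTTATG was present in 11.9%, GGAATG in 14.7%, CAGCTG in 16.3%, TATAAA in 13.6% and TGTTTAC in 3.6%. A match is a description of the sequence and says nothing of whether a factor binds there.

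In the colon, 5 of the 9 genes ranked among the 49 most abundant in every library, *Fcgbp* ranked 143 to 258, the regulators *Atoh1* and *Spdef* were at 30.9 to 66.0 TPM, and *Muc2* was listed near 0. The 9 genes together made up 2.78% to 3.95% of all transcripts in Ctrl colon and 2.89% to 3.66% in Y/T KO colon, so the total overlapped between genotypes. *Zg16*, a lectin-like protein that binds Gram-positive bacteria in mucus, held ranks 1 to 4 of all genes by TPM over the 6 colons. It was followed by *Tff3*, *Agr2*, *Spink4* and *Clca1*, then by *Fcgbp*, and at a distance by *Atoh1* and *Spdef*. Coverage, the mean reads per base, gave another order. In Ctrl colon 788 it was 812 for *Zg16*, against 8231 for *Tff3*, 4805 for *Spink4*, 3820 for *Agr2* and 1955 for *Clca1*. *Zg16* lay below each of these in the other colons too, and ranged from 454 to 985. Its rank by TPM, and the share of the 9 genes in all transcripts, thus rest on a TPM that coverage did not match. The reason was not tested. In Ctrl colon the ranges of *Tff3* and *Agr2* overlapped, *Spink4* overlapped with both and with *Clca1*, and *Clca1* (2807 to 3269 TPM) lay below *Tff3* and *Agr2* in every library. The ranges of *Atoh1* (46.4 to 55.3 TPM) and *Spdef* (31.3 to 49.6 TPM) overlapped in Ctrl colon, with *Atoh1* above *Spdef* within each of the 3 libraries.

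**Figure D1:**
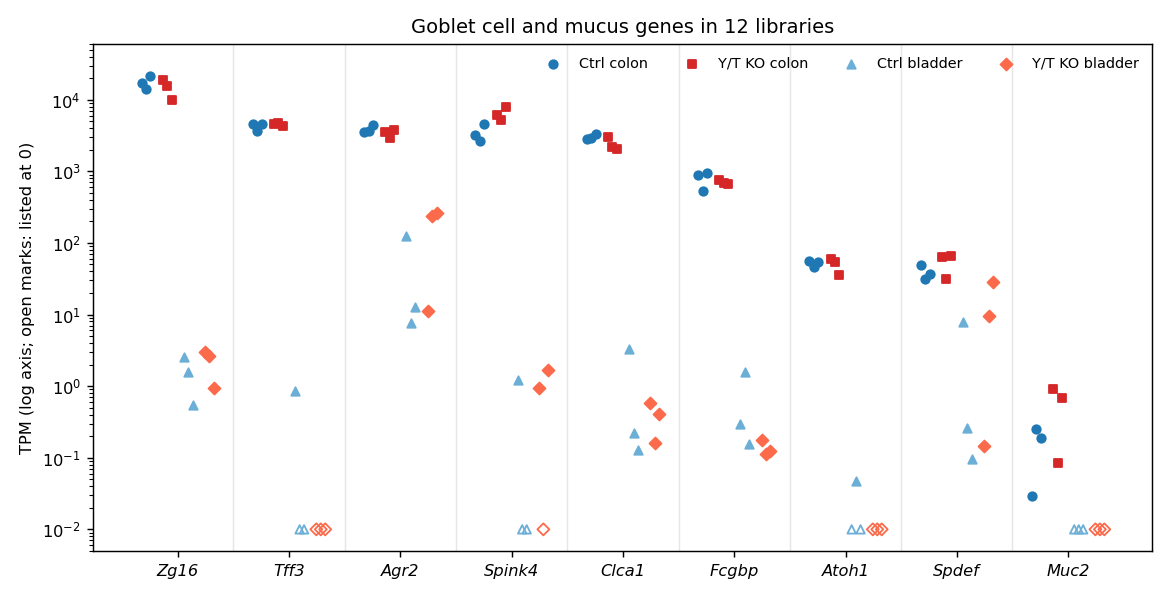
TPM (log axis) of each of the 9 genes in each library, with 3 points per group and open marks at the bottom for libraries in which the gene is listed at 0. Zg16 is highest in the colon, at 10064 to 21629 TPM, Muc2 stays under 1 TPM, and Agr2 and Spdef spread widely between bladder libraries.

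Results follow the roles of the genes, starting with the regulators. *Atoh1* (chr6:64729125-64731245, plus strand), the bHLH factor that commits progenitors to the secretory fate, was at 55.3, 46.4 and 53.6 TPM in Ctrl colon, against 59.9, 53.4 and 35.3 TPM in knockout colons. The genotypes overlapped, and the lowest value came from the knockout colon of mouse 780. The log2 fold change, Y/T KO against Ctrl, on the log2(rescaled TPM + 0.1) scale was -0.06 ± 0.22 (SE), with a limma adjusted p = 0.947. *Spdef* (chr17:27714352-27728955, minus strand), an ETS factor required for full goblet cell maturation, was at 49.6, 31.3 and 37.2 TPM in Ctrl colon, against 64.2, 30.9 and 66.0 TPM in knockout colons. Mice 759 and 780 were above all Ctrl colons, and mouse 783 was below all of them. The log2 fold change was 0.43 ± 0.34 (limma, adjusted p = 0.699), and its 95% confidence interval ran from -0.36 to 1.22.

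The genes of mucus components and of mucin folding overlapped between genotypes in the colon, and none was called. *Zg16* (chr7:127050156-127087328, minus strand) was at 17186, 14324 and 21629 TPM in Ctrl colon, against 18646, 15472 and 10064 TPM in knockout colons. Its lowest value was again that of mouse 780, and the log2 fold change was -0.25 ± 0.29 (limma, adjusted p = 0.785). *Clca1* (chr3:145003817-145032776, minus strand), a secreted metalloprotease that processes MUC2, was at 2807, 2916 and 3269 TPM in Ctrl colon, against 3015, 2201 and 2030 TPM in knockout colons. Mice 783 and 780 were below all Ctrl colons and mouse 759 was within their range, with a log2 fold change of -0.29 ± 0.20 (limma, adjusted p = 0.658). *Fcgbp* (chr7:28071236-28120862, plus strand), a large mucus protein that associates with MUC2, was at 879, 527 and 936 TPM in Ctrl colon, against 752, 697 and 661 TPM in knockout colons. The knockout values lay inside the Ctrl range, and the log2 fold change was -0.07 ± 0.26 (limma, adjusted p = 0.945).

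*Tff3* (chr17:31125306-31129646, minus strand), the trefoil factor of intestinal goblet cells, which aids repair of the epithelium, was at 4595, 3634 and 4646 TPM in Ctrl colon, against 4518, 4664 and 4243 TPM in knockout colons. Only the Ctrl colon of mouse 786 stood below the others, and the log2 fold change was 0.10 ± 0.19 (limma, adjusted p = 0.872). *Agr2* (chr12:35992907-36004087, plus strand) was at 3510, 3633 and 4387 TPM in Ctrl colon, against 3546, 2876 and 3829 TPM in knockout colons. The ranges overlapped, and the log2 fold change was -0.14 ± 0.20 (limma, adjusted p = 0.833). The 95% confidence intervals were -0.33 to 0.54 for *Tff3* and -0.59 to 0.32 for *Agr2*, so changes of this size in either direction are not shown to be absent.

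*Spink4* (chr4:40920052-40931395, plus strand), a Kazal-type serine protease inhibitor secreted by goblet cells, was the member with the largest estimate in the colon. It was at 3226, 2691 and 4551 TPM in Ctrl colon, against 6026, 5237 and 7969 TPM in knockout colons. Every knockout colon was above every Ctrl colon, and the gap between the groups was smaller than the range within either group. Mean rescaled TPM was 3460 ± 1149 (SD, n = 3) in Ctrl colon and 6453 ± 1504 (SD, n = 3) in Y/T KO colon. Its log2 fold change was 0.93 ± 0.28, a ratio of 1.90 with a 95% confidence interval of 1.22 to 2.97, and it did not pass the correction over all genes (limma, unadjusted p = 0.0105, adjusted p = 0.403). Over the processing alternatives that kept all libraries, the estimate stayed between 0.89 and 0.96 with adjusted p from 0.315 to 0.795, and when libraries were left out 1 at a time it stayed between 0.69 and 1.17.

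**Figure D2:**
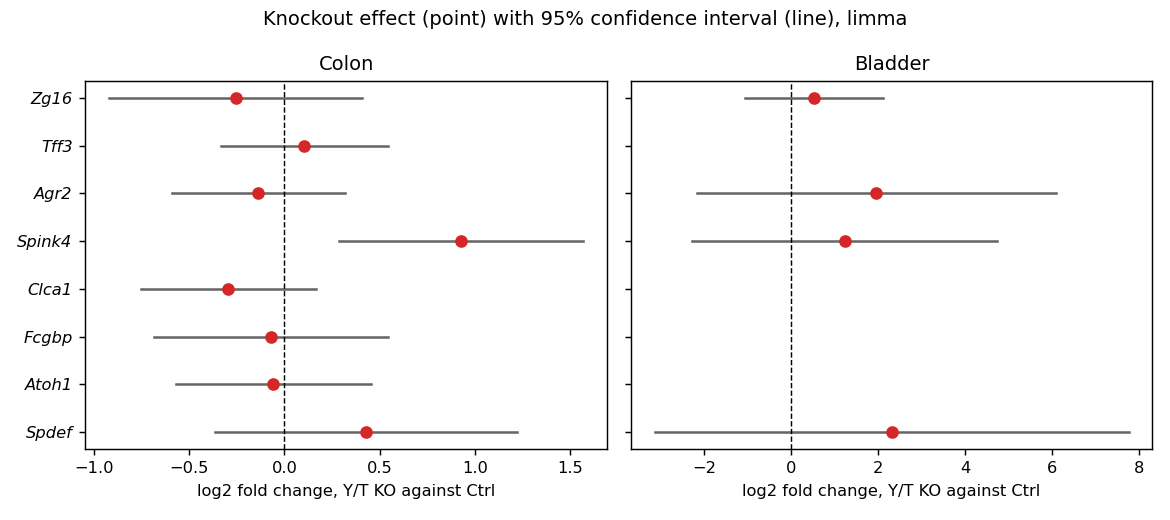
Log2 fold change, Y/T KO against Ctrl (points), with 95% confidence intervals (lines) from limma, for the 8 genes tested in the colon (left) and the 4 tested in the bladder (right, on a wider axis). The interval of Spink4 in the colon is the only one that does not include 0, and its adjusted p is 0.403.

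Taking the 8 members tested in the colon, 0 were called at an adjusted p under 0.05, where 0.137% of all 17500 genes tested were called (24 genes, of which 14 fell and 10 rose). At an unadjusted p under 0.05 the count was 1 of 8, *Spink4*, against 9.73% of all genes. Groups without overlap were likewise seen for 1 of 8, against 15.8% of all genes, so neither share stood apart from the background. The median log2 fold change of the 8 members was -0.06, beside 0.01 over all genes, and it turned positive without the colon library of Ctrl 788 (0.04), Ctrl 787 (0.06) or Y/T KO 780 (0.06). In these bulk samples, fewer cells of a type and less RNA per cell cannot be told apart.

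The make-up of the goblet cell transcripts differed between the colons. *Spink4* made up 9.99%, 9.68% and 11.5% of the summed TPM of the 9 genes in Ctrl colon, and 16.5%, 16.8% and 27.6% in Y/T KO colon. *Zg16*, which stood higher by TPM than by coverage, made up 51.5% to 54.7% in Ctrl colon and 34.8% to 50.9% in Y/T KO colon. Both shares separated the genotypes without overlap, with the most extreme values in mouse 780, but the shares of a library sum to the whole, so a higher share of *Spink4* lowers that of *Zg16*. Per transcript of *Tff3*, *Zg16* overlapped, at 3.74 to 4.66 in Ctrl colon and 2.37 to 4.13 in Y/T KO colon. *Spink4* per transcript of *Tff3* was at 0.702, 0.740 and 0.980 in Ctrl colon and at 1.33, 1.12 and 1.88 in Y/T KO colon. Per transcript of *Clca1* it was at 0.923 to 1.39 in Ctrl colon and at 1.998 to 3.93 in Y/T KO colon. These ratios were chosen after the values of *Spink4* were seen, and no test was made of them.

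**Figure D3:**
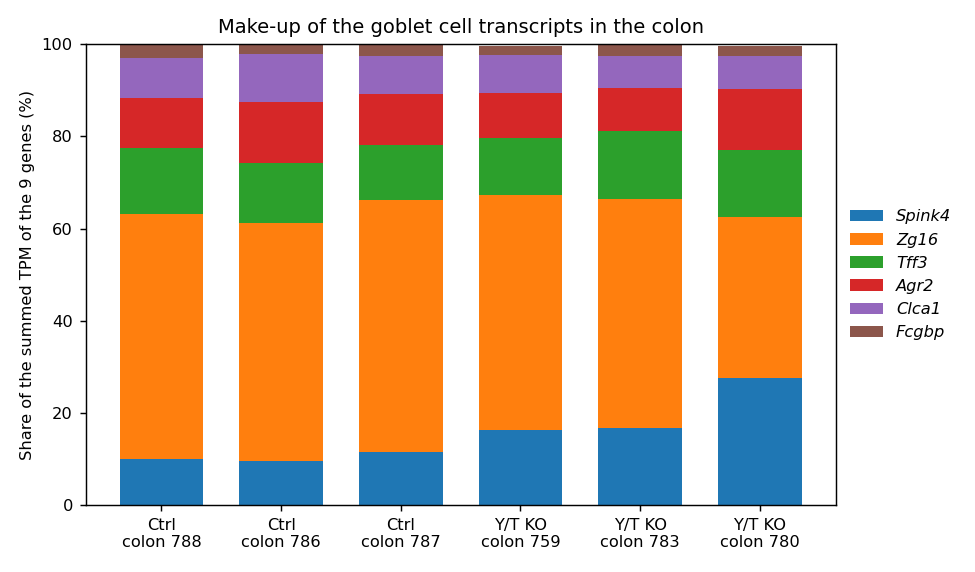
Share (%) of each abundant member in the summed TPM of the 9 genes, in stacked bars for the 6 colon libraries; Atoh1, Spdef and Muc2 are too low to be drawn. The share of Spink4 is 9.68% to 11.5% in the Ctrl colons and 16.5% to 27.6% in the Y/T KO colons.

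Across the 6 colon libraries, the members did not vary as 1 block. Pearson's r between pairs of the 8 members tested was positive for 21 of 28 pairs, with a median of 0.41. It was highest for *Zg16* with *Atoh1* (0.91), *Tff3* with *Fcgbp* (0.91) and *Clca1* with *Zg16* (0.86). It was lowest for *Spink4* with *Clca1* (-0.35) and with *Zg16* (-0.17). These values describe 6 libraries of 2 genotypes that share tissue composition and scaling, and carry no test. The 5 other genes whose pattern was most like the mean standardized level of the 8 members, among 11888 genes with a mean of at least 5 TPM, were *Barx2* (r = 0.99), *Syp* (0.99), *Ikbip* (0.98), *Oit1* (0.98) and *Tab2* (0.98), and 25 genes reached at least 0.95.

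*Muc2* (chr7:141690340-141754693, plus strand), the gene of the gel-forming mucin that defines intestinal goblet cells, went against the label in the values of these tables. It was listed at 0.029, 0.253 and 0.187 TPM in Ctrl colon, against 0.917, 0.085 and 0.689 TPM in knockout colons, in the same libraries in which 5 other members were at 2030 TPM or more. In bladder it was listed at 0 in all 6 libraries. The tables split *Muc2* into 2 to 4 rows per colon library, and hold 1 row per bladder library. In the GENCODE M21 annotation of GRCm38, the gene has 8 transcripts, none of which spans it, in 5 separate blocks with a largest gap of 40000 bases. *Muc2* is the only member whose transcripts lie in separate blocks, and the part of the annotation in its low values was not tested. A two-sided exact permutation test of the colon values gave p = 0.3, where 3 against 3 mice cannot give less than 0.1, and no fold change is given for values this low.

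Other mucins are transmembrane proteins of the epithelial surface or gels of other organs. Of 13 such genes, 12 were found in the tables, 6 were tested in the colon and 0 were called or had an unadjusted p under 0.05, with a median log2 fold change of -0.15. *Muc3*, a transmembrane mucin of enterocytes, was at 2959, 1846 and 2635 TPM in Ctrl colon, against 3277, 1749 and 1192 TPM in knockout colons, and overlapped between genotypes. *Muc13*, also on the apical surface, was at 1489 to 1796 TPM in Ctrl colon, against 1343 to 1738 TPM in knockout colons. *Muc3a* was at 61.5 to 113 TPM in Ctrl colon, against 59.6 to 102 TPM in knockout colons, and since it and *Muc3* are similar in sequence, the split of reads between them is uncertain. The gastric and airway gel mucins *Muc5ac*, *Muc5b* and *Muc6* were listed at 0 in every library.

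Of 26 other genes of goblet granules and secretion, 23 were tested in the colon, 0 were called, and the median log2 fold change was 0.12. *Guca2a*, which encodes the peptide guanylin, was at 1673, 1391 and 1855 TPM in Ctrl colon, against 2111, 1452 and 1091 TPM in knockout colons. *Tgm3*, a transglutaminase that crosslinks MUC2, was at 1029, 1191 and 782 TPM in Ctrl colon, against 612, 559 and 324 TPM in knockout colons. No knockout colon reached a Ctrl colon for *Tgm3*, but the log2 fold change of -1.0 ± 0.25 did not pass the correction (limma, adjusted p = 0.323). *Stard10*, a lipid transfer protein, was at 339 to 503 TPM in Ctrl colon, against 431 to 736 TPM in knockout colons. At an unadjusted p under 0.05, 2 genes of this list were higher and 1 lower, where 9.73% of all genes passed in either direction. Without overlap, 1 tested gene was lower, *Tgm3*, and 1 was higher, *Capn8*, where 15.8% of all genes had no overlap. *Capn8* was at 6.84 to 10.7 TPM in Ctrl colon and at 10.8 to 20.3 TPM in knockout colons (limma, adjusted p = 0.439).

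The largest estimates of this list came from genes that were high in 1 or 2 of the 3 knockout colons. *Retnlb*, a bactericidal protein secreted by goblet cells, was at 1.44, 1.36 and 4.55 TPM in Ctrl colon, against 11.4, 1.44 and 93.5 TPM in knockout colons. *Ang4*, an antimicrobial ribonuclease, was at 11.2, 3.67 and 20.2 TPM in Ctrl colon, against 136, 8.57 and 202 TPM in knockout colons. Both were thus high in mice 780 and 759 and within the Ctrl range in mouse 783. *Clca4b* was at 1.33 to 3.15 TPM in the other colons and at 193 TPM in mouse 780 alone. None of these passed the test (limma, adjusted p = 0.650 for *Retnlb*, 0.601 for *Ang4* and 0.677 for *Clca4b*), and they were named after their values were seen.

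Of 21 enzymes that build the O-linked glycans of mucins, 19 were tested in the colon, 0 were called, 1 had an unadjusted p under 0.05 and the median log2 fold change was 0.07. The sialyltransferase *St6galnac6* was at 247 to 274 TPM in Ctrl colon, against 248 to 395 TPM in knockout colons. The galactosyltransferase *B3galt5* was at 238 to 311 TPM in Ctrl colon, against 236 to 297 TPM in knockout colons, and the sialyltransferase *St3gal6* at 199 to 271 TPM and at 170 to 240 TPM. All of these overlapped. Among the 19 genes tested, *Galnt12*, which starts O-glycan chains, was the 1 gene without overlap, at 59.1 to 64.2 TPM in Ctrl colon, against 72.4 to 78.9 TPM in knockout colons (limma, adjusted p = 0.498). Over all genes, 9.73% had an unadjusted p under 0.05 and 15.8% had no overlap. *Chst5*, a sulfotransferase below the minimum for a test, was at 0.361 to 0.556 TPM in Ctrl colon, against 0 to 0.069 TPM in knockout colons.

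All 17 regulators of the secretory lineage were tested in the colon, 0 were called and the median log2 fold change was 0.12. *Elf3*, an epithelial ETS factor, was at 470 to 588 TPM in Ctrl colon, against 595 to 726 TPM in knockout colons. *Klf4*, needed for goblet cell differentiation, was at 272 to 342 TPM and at 264 to 310 TPM, and *Stat6*, which relays IL-4 and IL-13 signals, at 66.7 to 72.3 TPM and at 58.2 to 63.2 TPM. *Elf3* was above and *Stat6* below all Ctrl values, while *Klf4* overlapped. At an unadjusted p under 0.05, 4 genes were higher (*Hes1*, *Sox9*, *Foxa3* and *Dll4*) and 1 was lower (*Spib*), where 9.73% of all genes passed in either direction. Without overlap, 4 genes of the list were higher and 2 lower, where 15.8% of all genes had no overlap. *Hes1*, a Notch target that represses *Atoh1*, was at 33.9, 62.0 and 36.5 TPM in Ctrl colon, against 95.4, 90.3 and 55.8 TPM in knockout colons, with a log2 fold change of 0.92 ± 0.26 (limma, adjusted p = 0.372). *Foxa3*, a forkhead factor of goblet cells, was at 45.7, 23.8 and 40.4 TPM in Ctrl colon, against 58.2, 55.3 and 50.3 TPM in knockout colons, without overlap (limma, adjusted p = 0.505).

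Markers of other cell types are set beside these values, since TPM is a share of the transcripts of the whole tissue. Of 10 markers of smooth muscle, all 10 had estimates below 0, 0 were called and 7 had an unadjusted p under 0.05, with summed TPM of 7819 to 8476 in Ctrl colon and 5077 to 5976 in Y/T KO colon. Of 10 markers of absorptive colonocytes, all 10 had estimates below 0, 0 were called and 6 had an unadjusted p under 0.05, with summed TPM of 5607 to 6392 in Ctrl colon and 3141 to 4425 in Y/T KO colon. No overlap between genotypes was seen for 8 of the smooth muscle and 9 of the colonocyte markers. Over all genes, 9.73% had an unadjusted p under 0.05 and 15.8% had no overlap. No gene of either list was at 0 in all libraries of a colon group. The summed TPM of the 13 general epithelial markers overlapped, at 8917 to 12857 in Ctrl colon and 10853 to 12348 in Y/T KO colon, and 1 of them, the tight junction gene *Ocln*, was lower without overlap (110 to 120 TPM against 64.5 to 86.4 TPM; limma, adjusted p = 0.364). With values scaled to those epithelial markers, the log2 fold change of *Spink4* was 0.94. The 6 macrophage markers all had estimates above 0, 0 were called, and 3 (*C1qa*, *C1qb* and *C1qc*) had an unadjusted p under 0.05 and no overlap, while the sums overlapped, at 401 to 533 TPM and 526 to 785 TPM. The part of these markers in the values of the members was not tested.

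**Figure D4:**
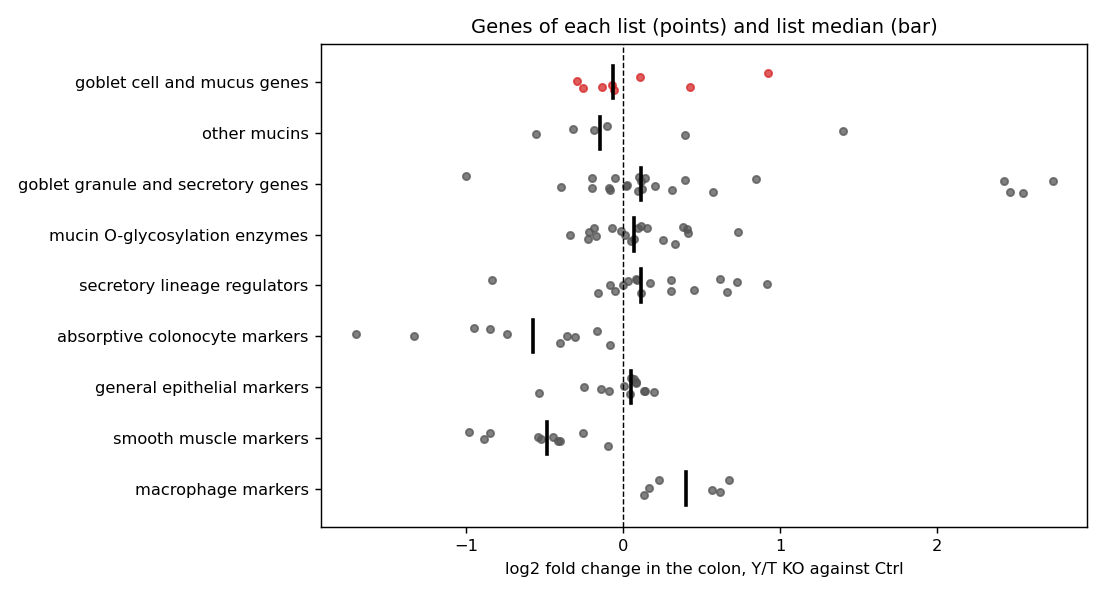
Log2 fold change in the colon, Y/T KO against Ctrl, for each tested gene of a list (points) and the list median (bars). The median is -0.06 for the goblet cell and mucus genes, -0.57 for absorptive colonocyte markers and -0.49 for smooth muscle markers, and no gene shown was called.

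In the bladder, most members were at or near 0, and *Agr2* and *Spdef* were high in 3 of the 6 libraries, of both genotypes. *Agr2* was at 125, 7.53 and 12.6 TPM in Ctrl bladder, against 11.4, 236 and 264 TPM in knockout bladders. *Spdef* was at 7.81, 0.258 and 0.097 TPM in Ctrl bladder, against 0.145, 9.53 and 28.9 TPM in knockout bladders. The high libraries were Ctrl 784, Y/T KO 783 and Y/T KO 780 for both genes, and the other 3 libraries were low for both. As printed above, the promoters of both genes hold a TTTATG match, a motif found in 11.9% of promoters. A match does not show that a factor binds, and its part in these bladder values was not tested.

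The same 3 bladder libraries held transcripts of prostate, a list of 6 markers chosen after the values of *Agr2* and *Spdef* were seen. The summed TPM of these markers was 42754 in Ctrl 784, 40743 in Y/T KO 783 and 29765 in Y/T KO 780, and 15.4 to 40.2 in the other 3 libraries. *Sbp*, which encodes a spermine-binding protein of prostate secretion, was at 36341, 39648 and 27206 TPM in the high libraries and at 14.3 to 35.3 TPM in the others. *Msmb*, a protein secreted by the prostate, was at 2410, 129 and 795 TPM in the high libraries and at 0 to 0.507 TPM in the others. Most of the summed TPM was *Sbp*. *Tgm4*, also on the list, did not follow, at 0 to 0.139 TPM in the high libraries and 0 to 0.273 TPM in the others. The remaining markers of the list were higher in each of the high libraries than in any other bladder. Among them, *Hoxb13* is not particular to prostate here, as it was at 221 to 368 TPM in the colons. The 7 seminal vesicle markers summed to 0 to 2.18 TPM over all bladder libraries. A list of 6 skeletal muscle markers, also chosen after the values were seen, summed to 1675, 4439 and 4912 TPM in the high libraries and to 1018 to 1222 TPM in the others. Most of the sum in the others was *Acta1*, at 915 to 1137 TPM. *Myh4* was at 46.1, 409 and 432 TPM in the high libraries and listed at 0 in the others. *Agr2* and *Spdef* are known to be expressed in prostate epithelium, and the part of prostate transcripts in their bladder values was not tested. The labelled tissue was present in all 6 libraries, with urothelial markers at 4493 to 5980 TPM.

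**Figure D5:**
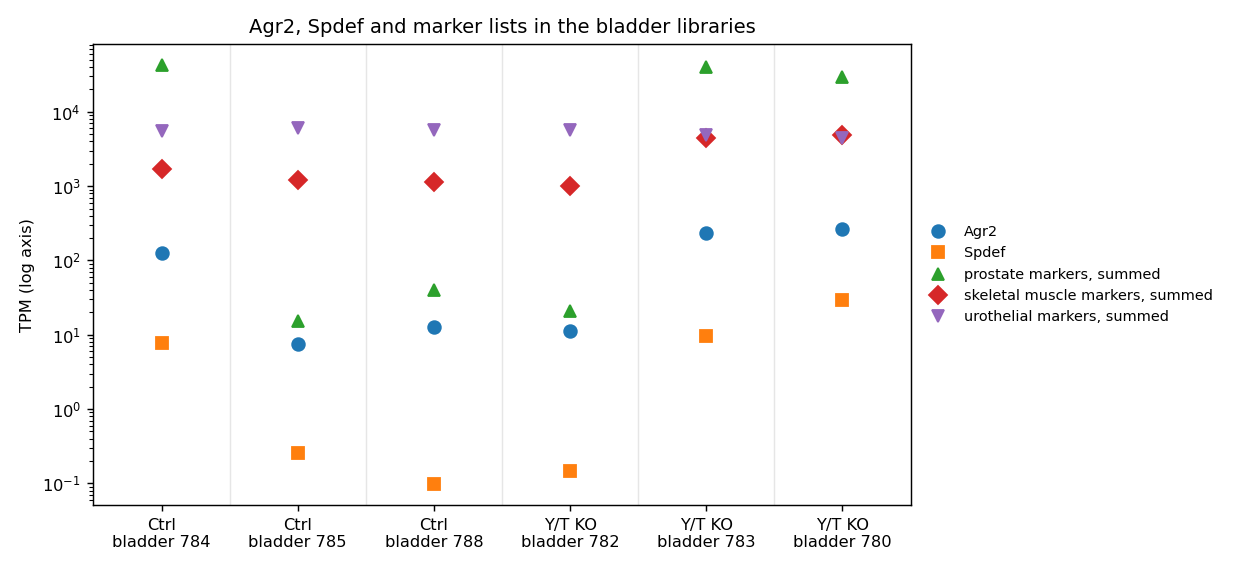
TPM (log axis) of Agr2 and Spdef and the summed TPM of 3 marker lists in each of the 6 bladder libraries. Agr2, Spdef and the prostate markers are high in Ctrl 784, Y/T KO 783 and Y/T KO 780, while the urothelial markers stay between 4493 and 5980 TPM.

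Tests of genotype in the bladder had wide intervals. The log2 fold change was 1.96 ± 1.66 for *Agr2* (95% confidence interval -2.16 to 6.08; limma, adjusted p = 0.624) and 2.31 ± 2.21 for *Spdef* (-3.13 to 7.75; adjusted p = 0.666). Leaving out single libraries moved the estimate of *Agr2* between 1.17 (without Ctrl 785) and 3.47 (without Y/T KO 782), and that of *Spdef* between 1.26 (without Ctrl 788) and 4.36 (without Y/T KO 782). Without the 3 libraries that held prostate markers, *Agr2* was at 7.53 and 12.6 TPM in 2 Ctrl bladders and at 11.4 TPM in 1 Y/T KO bladder, with a log2 fold change of 0.19 (limma, adjusted p = 0.909, the lone knockout being assumed to vary like the Ctrl mice). *Spdef* was then at 0.097 to 0.258 TPM, below the minimum for a test.

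Other members were low in the bladder, and their values are given without a fold change. *Zg16* was at 2.55, 1.60 and 0.554 TPM in Ctrl bladder, against 3.02, 2.67 and 0.930 TPM in knockout bladders, with overlap (limma, adjusted p = 0.744). As in the colon, its TPM stood above its coverage, which was 0.025 to 0.129 reads per base, so its test rests on values near 0. *Spink4* was at 1.22 TPM in Ctrl 784, 0.934 TPM in Y/T KO 782 and 1.67 TPM in Y/T KO 780 and was listed at 0 in the other 3 bladders (limma, adjusted p = 0.730). *Clca1* was at 3.27 TPM in Ctrl 784 and at 0.130 to 0.579 TPM elsewhere, and *Fcgbp* at 1.57 TPM in Ctrl 785 and at 0.114 to 0.299 TPM elsewhere. Neither passed the minimum for a test across genes, and two-sided exact permutation tests gave p = 0.9 for *Clca1* and p = 0.2 for *Fcgbp*, where the smallest possible p is 0.1. *Tff3* was at 0.844 TPM in Ctrl 784 and *Atoh1* at 0.047 TPM in Ctrl 785, and both were listed at 0 in the other 5 bladders.

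Of the 4 members tested in the bladder, 0 were called, beside 0.302% of 18237 genes (40 lower and 15 higher), and 0 had an unadjusted p under 0.05, beside 14.8% of genes. None of the 4 separated the genotypes, as 20.4% of genes did. Among other goblet cell genes, 0 were called in the bladder, out of 16 tested for granules and secretion, 16 for O-glycosylation, 13 for regulators and 3 for other mucins. At an unadjusted p under 0.05, 3 of the first and 1 of the second list were lower, and no other gene of the 4 lists passed. *Lrrc26*, a potassium channel subunit of secretory cells, was at 30.7, 27.6 and 33.7 TPM in the 3 libraries with prostate markers and at 3.03 to 4.27 TPM in the others. *B4galnt2*, a glycosyltransferase, was at 4.46 to 11.9 TPM in those libraries and listed at 0 in the others. Over the 6 bladder libraries and 12661 genes with a mean of at least 5 TPM, the genes most like the mean of *Agr2* and *Spdef* were *Slc12a2*, *Slc26a4*, *Csrp3*, *Slc5a8* and *Mlph* (r = 0.998, 0.998, 0.998, 0.997 and 0.996), and 198 genes reached at least 0.95.

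The difference of the genotype effect between tissues was tested as an interaction over all 12 libraries for the 4 members that passed the minimum in both. None was called, beside 0.0491% of 16298 genes (8 genes), and 0 had an unadjusted p under 0.05, beside 12.6% of genes. The colon effect minus the bladder effect was -2.12 ± 1.83 for *Agr2* (limma, adjusted p = 0.651), -1.89 ± 2.49 for *Spdef* (adjusted p = 0.778), -0.80 ± 0.79 for *Zg16* (adjusted p = 0.692) and -0.28 ± 1.62 for *Spink4* (adjusted p = 0.952). Each interval included 0, that of *Agr2* running from -6.23 to 1.99. For *Zg16*, the bladder side rests on coverage of only 0.025 to 0.129 reads per base. Without the 3 bladder libraries with prostate markers, the value of *Agr2* was -0.34.

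Between tissues, every member was higher in each colon than in each bladder of the same genotype. For *Muc2* this rested on values below 1 TPM, and for *Spdef* in Y/T KO mice the closest libraries were at 30.9 and 28.9 TPM. *Agr2* had a log2 difference, colon against bladder, of 7.64 ± 1.27 in Ctrl mice (limma, adjusted p = 0.000674) and of 5.52 ± 1.27 in Y/T KO mice (adjusted p = 0.00479), and without the 3 bladder libraries with prostate markers these were 8.86 and 8.52. *Zg16* had differences of 13.82 ± 0.55 (limma, adjusted p = 1.5e-08) and 13.01 ± 0.55 (adjusted p = 2.39e-08). Its coverage in the bladders was only 0.025 to 0.129 reads per base, so these differences rest on bladder TPM that coverage did not match, and their size is uncertain. *Clca1* and *Fcgbp* passed the minimum only through the colon, with 5 of the 6 bladder values of each below 1 TPM, so no fold is given for them. *Tff3*, *Spink4* and *Atoh1* were listed at 0 in several bladders, and no fold is given for these either. Of the 8 members tested, 8 in Ctrl and 7 in Y/T KO mice were called higher in the colon, beside 25.1% and 25.8% of 19773 genes, but members that passed the minimum only through the colon had to differ, so these counts carry no weight.

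*Spdef* was the member whose tissue difference was least certain. Its log2 difference was 5.77 ± 1.73 in Ctrl mice (limma, adjusted p = 0.0189) and 3.88 ± 1.73 in Y/T KO mice (adjusted p = 0.0869). The Ctrl call was lost without Ctrl colon 788 (adjusted p = 0.0527), Ctrl bladder 785 (0.0651) or Ctrl bladder 788 (0.0741), and the adjusted p in Y/T KO mice fell to 0.0454 without Ctrl bladder 784 and to 0.0323 without Y/T KO bladder 780, and was 0.0377 with a pseudocount of 1. Without the 3 bladder libraries that held prostate markers, the difference in Y/T KO mice was 7.92, with 1 Y/T KO bladder left (0.145 TPM). *Spdef* then passed the minimum only through the colon, so it had to differ, and this value carries no weight. Relative to 13 general epithelial markers, the tissue difference of *Spdef* was 3.85 in Ctrl mice (adjusted p = 0.0791) and 1.88 in Y/T KO mice (adjusted p = 0.362). The same 13 markers summed to 8917 to 12857 TPM in the colons and 2706 to 3306 TPM in the bladders.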

How the data were processed

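Stranded libraries of polyadenylated RNA were made from 12 samples of 9 mice. HISAT2, StringTie and GRCm38 are named in the submitters' processing notes, without versions. The authors deposited a StringTie table per library with TPM, which sums to 1000000 per library, FPKM, made by the authors per kilobase of transcript and scaled to mapped fragments, and coverage, deposited as mean reads per base. TPM of rows with the same gene ID was summed, which gave 54532 genes, and 98.3% of IDs shared with GENCODE M21 had the same coordinates. Depth, from the ratio of coverage to FPKM, was 2.80 to 3.94 gigabases aligned, and its counting error was not estimated.

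TPM was divided by median-of-ratios size factors, and log2(rescaled TPM + 0.1) was fitted with limma 3.58.1 in R 4.3.3 (eBayes with trend and robust options) over genes that reached 0.5 TPM in 3 libraries or more, within each tissue, or over all 12 libraries for the interaction and tissue differences. Calls were made at an adjusted p under 0.05 (Benjamini-Hochberg, over all genes tested). The deposited tables hold no read counts, so no count test was used. A check on simulated data was also run, and its result is not given here. Groups came from the labels. Colon and bladder of mice 788, 783 and 780 are of the same animal. Their deviations from group means correlated by -0.009, 0.068 and 0.044, and mouse was tried as a block (limma's duplicateCorrelation, consensus 0.051).

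The 9 genes and all lists were chosen with earlier results of these data known. All 9 are described in full, and of each other goblet cell list the 3 genes with the highest mean TPM and any called gene are named. Further genes were named after their values were seen, and 1 prostate gene is not reported here. The alternatives were pseudocounts of 0.5 and 1, no filter, a mean of at least 1 TPM, TPM and FPKM as deposited, scaling by epithelial markers, eBayes without its options, 1 fit over all libraries, the mouse block and leaving out each library. Leaving out the 3 bladder libraries with prostate markers was added after seeing the data. Exact permutation tests were two-sided (SciPy 1.17.1).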

Additional observations from a re-analysis of the deposited data

How the results depend on the processing

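No member was called for genotype in either tissue, or for the difference between tissues, under any alternative run. With the replicate block for mouse, 0 members were called for genotype in either tissue or for the interaction, the log2 fold change of *Spink4* in the colon was 0.90, and no call of a member changed. The interaction of *Spink4* changed sign with a pseudocount of 0.5 (0.34) or 1 (0.54), where its bladder values were 0 to 1.67 TPM. Leaving out single libraries turned the sign of small estimates, which ranged from -0.0736 to 0.205 for *Tff3*, -0.394 to 0.12 for *Fcgbp*, -0.236 to 0.001 for *Agr2* and -0.208 to 0.158 for *Atoh1* in the colon, -0.0569 to 1.04 for *Zg16* in the bladder and -1.48 to 0.32 for the interaction of *Spink4*. The median of the members in the bladder was 1.60, 0.17 without a filter and 0.18 with all libraries in 1 fit, where more members were tested.

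Genes called over the whole colon table (14 lower and 10 higher) became 2 and 4 without a filter and 39 and 30 with all 12 libraries in 1 fit, with or without the block, and ranged from 1 to 43 lower and 2 to 20 higher when single libraries were left out. In the bladder, 40 lower and 15 higher became 2 and 0 without the 3 libraries with prostate markers and 23 were higher with all libraries in 1 fit, and the counts ranged from 8 to 36 lower and 2 to 15 higher when single libraries were left out. With 3 mice per group and no read counts, changes within the intervals given were not detectable, and values near 0 may be failed estimates: *Gapdh*, which every cell uses, was listed at only 3.98 to 35.1 TPM.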

Other observations

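Of 10 pancreatic acinar markers, 8 were tested in the colon and 0 were called. Lower values in Y/T KO colon without overlap were seen for 7, where 15.8% of all genes had no overlap in either direction. The summed TPM of the list overlapped, at 523 to 847 in Ctrl colon and 618 to 773 in Y/T KO colon, and most of it was *Cela1*, an elastase, at 514 to 736 TPM and at 616 to 770 TPM (log2 fold change 0.19; limma, adjusted p = 0.786). *Cela2a*, a pancreatic elastase, was at 10.0, 1.63 and 19.9 TPM in Ctrl colon and was listed at 0 in all 3 Y/T KO colons (limma, adjusted p = 0.0805). The highest values of *Cela2a* were in mice 787 and 788. The part of these markers in other values was not tested.

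*Tgm3* was also lower in every Y/T KO bladder, at 0.515 to 0.954 TPM, than in every Ctrl bladder, at 1.42 to 2.04 TPM (log2 fold change -1.28 ± 0.33; limma, adjusted p = 0.178). *Chst4*, a sulfotransferase, was at 7.81 to 17.1 TPM in Ctrl bladder, against 8.71, 0.971 and 1.84 TPM in knockout bladders, and was thus low in mice 783 and 780 (limma, adjusted p = 0.287). Both of these libraries held prostate markers, as did that of Ctrl 784 (10.9 TPM), and Y/T KO 782, which did not, lay between Ctrl 788 and Ctrl 785. *Creb3l1*, a factor of the secretory pathway, was at 58.8 to 77.5 TPM in Ctrl bladder, against 33.4 to 51.0 TPM in knockout bladders (limma, adjusted p = 0.166). For both *Tgm3* and *Creb3l1*, Ctrl 784 was the lowest Ctrl bladder and Y/T KO 782 the highest knockout bladder. Neither overlapped between genotypes, as was so for 20.4% of all genes in the bladder. The part of prostate transcripts in these values was not tested.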
